A study of Mus musculus with 20 samples.

Results

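The genes described here are 34 target genes and regulators of the tumour suppressor p53, followed in mouse pre-B cells with and without unrepaired RAG breaks. They were chosen by name, from knowledge of the pathway and with earlier results of these data known. Every probe set annotated to exactly 1 of the 34 symbols was taken, which gave 59 of the 44200 probe sets in the table and 31 of the 34 genes. The gene of p53 itself, Plk3 and Gdf15 were not analysed here. In the cell lines 28 of the 31 genes had signal enough to be tested, and in the bone marrow samples 26 did. Each gene is represented by its probe set with the highest mean level unless another is named, and values of a group follow the order of its lines 1, 2 and 3.

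p53 is a transcription factor that is held at a low level by its ubiquitin ligase Mdm2 and is stabilised after DNA damage, when kinases such as ATM act on it. It then raises genes that stop the cell cycle, repair DNA, start cell death or adjust metabolism, together with genes such as Mdm2 and Ppm1d that shut it off again. In developing lymphocytes, breaks made by the RAG recombinase at antigen receptor genes are a natural source of such damage.

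All 5 groups of lines were v-abl-transformed pre-B cells given STI571 (imatinib) at 3 uM for 48 hours; the drug inhibits v-abl, stops the cells dividing and so leads them to express RAG. The groups were wild type lines (n = 3), which cut and rejoin DNA, RAG-2-deficient lines (n = 3), which cannot cut it and were the control, Artemis-deficient lines (n = 3), which cut it but cannot open the hairpin ends, Artemis- and ATM-deficient lines (n = 2, each on 2 arrays that were averaged), and Artemis-deficient cells in which a dominant negative form of IkB holds NF-kB inactive (n = 3, here IkB-DN lines). The bone marrow set held purified pre-B cells of mice with an IgH transgene, which provides a heavy chain to cells that cannot assemble their own, Artemis-deficient (n = 2) or RAG-1-deficient (n = 2, the control); the design names no STI571 for them. The name of wild type line 3 contains the letters ATM and those of the RAG-2-deficient lines the letters Bcl, whose meaning the labels leave unstated, as they do whether the IkB-DN samples share a parent line. The design calls the samples of a group biological replicates; ages of the mice and whether mice were pooled are not given.

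Levels are log2(signal + 6) in the lines and log2(signal + 11) in the marrow, and a change is a difference of such means with its standard error (SE). Because of the added constant, a change understates the ratio of low signals. Medians of the arrays lay between 26.8 and 27.7 signal units in the lines and between 46.9 and 47.8 in the marrow, so the 2 sets were never compared with each other. Of the disrupted genes, Atm stood at 5.44 and 5.48 in the Artemis- and ATM-deficient lines on its first probe set and between 6.42 and 7.65 in all others, with wild type line 3 at 7.42 beside 7.46 and 7.41. Rag2 was measured at 4.69, 8.03 and 8.38 in the RAG-2-deficient lines and Rag1 at 12.39 and 12.71 in the RAG-1-deficient marrow; where the probes lie against the deleted parts is not stated, so these signals check nothing. The Artemis gene was not analysed here. In the lines the summed signal of 11 pre-B cell markers ranged from 36414 to 48365 over the samples, while that of 7 T and NK cell markers stayed at or below 63.9 and that of 5 dendritic cell markers at or below 55.1. The sum of 6 plasma cell markers ranged from 6065 to 14140 and that of 9 myeloid markers, of which 5 reached the signal needed for a test, from 142 to 1139. The erythroid sum covered 5 markers, of which Tfrc alone reached that signal, at levels of 10.31 to 11.83. The other erythroid markers were empty or at most 4.36, so the sum is nearly all Tfrc and says little about erythroid cells. It lay between 3059 and 3148 for the IkB-DN lines and between 2535 and 3395 for the Artemis- and ATM-deficient lines. For the Artemis-deficient lines it was 2071 to 3658, for the RAG-2-deficient 1779 to 2801 and for the wild type 1287 to 1770. The part of these marker sums in the results below was not tested. Across probe sets the IkB-DN lines correlated with each other at 0.976 to 0.983, about as closely as 2 arrays of 1 Artemis- and ATM-deficient line (0.982 and 0.984), and with Artemis-deficient line 3 at 0.939 to 0.944, against 0.894 to 0.920 with lines 1 and 2.

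Promoter windows, 250 bases before to 50 after an annotated start, were available from RefSeq (GRCm38.p6) for 27 of the 34 genes. The p53 half-site consensus, which is its own reverse complement and therefore reads the same on both strands, occurred with no mismatch in a window of 12 of these 27 genes (44.4%), against 9.55% of all 27025 genes of the table. Over windows the shares were 35% of 40 member windows and 8.36% of all 32851. The stretches below are those of the members whose levels followed the order of lines described further on and that hold a half-site before the start, followed by both stretches of Shisa5, which did not follow it; capitals mark the half-site.
Cdkn1a, chr17:29090881-29090940, plus strand: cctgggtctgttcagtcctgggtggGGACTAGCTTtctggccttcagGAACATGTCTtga
Mdm2, chr10:117710910-117710969, minus strand: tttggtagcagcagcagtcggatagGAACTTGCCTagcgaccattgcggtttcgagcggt
Ccng1, chr11:40755437-40755496, minus strand: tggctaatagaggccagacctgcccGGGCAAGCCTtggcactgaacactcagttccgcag
Polk, chr13:96519384-96519437, minus strand: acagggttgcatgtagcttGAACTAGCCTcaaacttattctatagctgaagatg
Aen, chr7:78895912-78895971, plus strand: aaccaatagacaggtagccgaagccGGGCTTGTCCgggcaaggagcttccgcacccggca
Ei24, chr9:36797335-36797369, minus strand: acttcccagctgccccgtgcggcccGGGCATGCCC
Sesn1, chr10:41887241-41887300, plus strand: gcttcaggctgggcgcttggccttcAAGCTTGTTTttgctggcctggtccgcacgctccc
Shisa5, chr9:109052693-109052752, plus strand: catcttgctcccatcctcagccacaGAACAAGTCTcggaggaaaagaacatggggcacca
Shisa5, chr9:109054651-109054710, plus strand: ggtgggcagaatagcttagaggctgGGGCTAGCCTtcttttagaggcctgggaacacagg
Cdkn1a holds 2 half-sites with 12 bases between them, the only member with a pair at most 13 bases apart, which 20 of all 27025 genes (0.074%) have. A match is a description of these letters: it does not show binding, and sites elsewhere in a gene were not searched.

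The members varied more between lines of 1 genotype than most genes did. The median standard deviation (SD) over members was 0.54 in wild type, 0.45 in RAG-2-deficient, 0.54 in Artemis-deficient and 0.52 in Artemis- and ATM-deficient lines, where the medians over all genes tested were 0.26, 0.22, 0.22 and 0.17. In the IkB-DN lines it was 0.14, beside 0.15 for all genes. Relative to each gene's mean over all lines, the median of the 24 members without an empty cell was 0.83 in Artemis-deficient line 1 and 0.73 in line 2, but -0.26 in line 3. It was 0.39 in RAG-2-deficient line 3 against -0.31 and -0.36 in lines 1 and 2, 0.18 in wild type line 3 against -0.14 and -0.30, and 0.28 in Artemis- and ATM-deficient line 2 against -0.46 in line 1. In the IkB-DN lines it was -0.41, -0.35 and -0.19. Over all genes tested the same median stayed between -0.02 and 0.03 in every line. Artemis-deficient line 1 held the highest level of all 14 lines for 7 of the 24 members and line 2 for another 7.

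**Figure D1:**
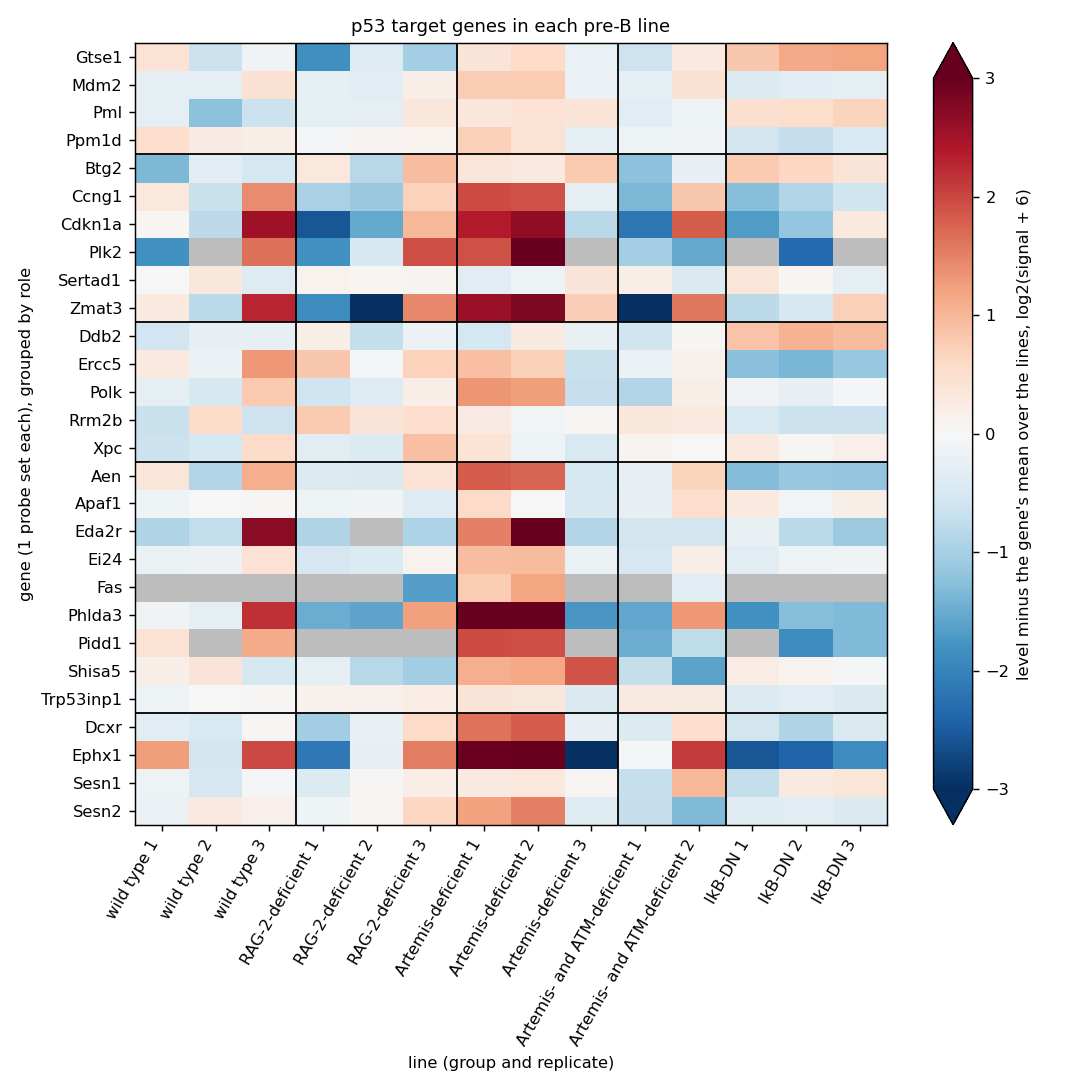
Levels of the 28 tested p53 target genes (rows, grouped by role between black lines) in the 14 lines (columns), as the log2 difference from the gene's mean over the lines; colours saturate at 3 in either direction and grey marks an empty cell. Artemis-deficient lines 1 and 2 are mostly red, with medians of 0.83 and 0.73, while line 3 of the same genotype has a median of -0.26.

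Among p53's own regulators, Mdm2, the ubiquitin ligase that marks p53 for degradation, stood at 8.92, 8.92 and 9.65 in wild type, 8.88, 8.86 and 9.39 in RAG-2-deficient, 9.95, 9.94 and 9.002 in Artemis-deficient, 8.92 and 9.65 in Artemis- and ATM-deficient and 8.76, 8.83 and 8.92 in IkB-DN lines. Its high lines were wild type 3, RAG-2-deficient 3, Artemis-deficient 1 and 2 and Artemis- and ATM-deficient 2, so that every group of lines except IkB-DN held both a high and a low line. Ppm1d encodes a phosphatase that turns the damage response off. It stood at 8.03, 7.75 and 7.71 in wild type, 7.45, 7.58 and 7.62 in RAG-2-deficient, 8.22, 7.93 and 7.22 in Artemis-deficient, 7.36 and 7.40 in Artemis- and ATM-deficient and 6.96, 6.80 and 7.06 in IkB-DN lines. The IkB-DN lines lay below all others on this probe set. On the other tested Ppm1d probe set they stood at 7.04, 6.83 and 7.14. There they overlapped the Artemis- and ATM-deficient lines (7.06 and 6.91) and Artemis-deficient line 3 (6.97). Pml, the scaffold of PML nuclear bodies, was measured at 7.09, 6.14 and 6.71 in wild type, 7.09, 7.07 and 7.71 in RAG-2-deficient, 7.70, 7.80 and 7.75 in Artemis-deficient, 7.04 and 7.22 in Artemis- and ATM-deficient and 7.84, 7.89 and 8.03 in IkB-DN lines. Here the Artemis-deficient lines were close together and above every wild type line. Gtse1 encodes a protein that binds p53 and restrains it. Its levels were 7.08, 5.99 and 6.52 in wild type, 4.81, 6.24 and 5.61 in RAG-2-deficient, 7.02, 7.20 and 6.45 in Artemis-deficient, 6.03 and 6.93 in Artemis- and ATM-deficient and 7.43, 7.78 and 7.81 in IkB-DN lines. The IkB-DN lines were the highest and RAG-2-deficient line 1 the lowest.

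Several genes of cell cycle arrest spread widely within groups. Cdkn1a encodes the cyclin-dependent kinase inhibitor p21, and its levels were 8.33, 7.49 and 10.82 in wild type, 5.71, 6.74 and 9.27 in RAG-2-deficient, 10.66, 10.93 and 7.45 in Artemis-deficient, 6.12 and 10.09 in Artemis- and ATM-deficient and 6.61, 7.12 and 8.58 in IkB-DN lines. Artemis-deficient lines 1 and 2 and wild type line 3 were the highest, and Artemis-deficient line 3 lay within the range of the IkB-DN lines. The other tested Cdkn1a probe set stood at 10.38, 10.77 and 7.46 in the Artemis-deficient lines and 6.22 and 9.91 in the Artemis- and ATM-deficient lines. Ccng1, the gene of cyclin G1, a classical p53 target, stood at 10.20, 9.23 and 11.31 in wild type, 8.91, 8.76 and 10.58 in RAG-2-deficient, 11.85, 11.80 and 9.61 in Artemis-deficient, 8.55 and 10.70 in Artemis- and ATM-deficient and 8.60, 9.0 and 9.29 in IkB-DN lines. Zmat3 encodes a zinc finger RNA-binding protein. It spanned the widest range of any member, 8.90, 7.79 and 10.90 in wild type, 6.72, 4.56 and 10.05 in RAG-2-deficient, 11.20, 11.41 and 9.35 in Artemis-deficient, 4.20 and 10.20 in Artemis- and ATM-deficient and 7.83, 8.13 and 9.33 in IkB-DN lines. Ccng1 and Zmat3 are shown in full here because they share the high and low lines of Cdkn1a, which was seen before they were chosen. The polo-like kinase gene Plk2 had empty cells, which are concentrated at low signal, and was measured at 3.20 (line 1) and 6.68 (line 3) alone in wild type, 3.20, 4.55 and 6.95 in RAG-2-deficient, 6.93 (line 1) and 8.55 (line 2) alone in Artemis-deficient, 4.02 and 3.50 in Artemis- and ATM-deficient and 2.69 (line 2) alone in IkB-DN lines. Btg2, an antiproliferative gene, ran differently: it stood at 8.70, 9.73 and 9.52 in wild type, 10.37, 9.22 and 10.98 in RAG-2-deficient, 10.41, 10.35 and 10.84 in Artemis-deficient, 8.83 and 9.82 in Artemis- and ATM-deficient and 10.84, 10.67 and 10.45 in IkB-DN lines. Artemis-deficient line 3 was here the highest of its group. Sertad1, a cell cycle cofactor, stayed between 5.97 and 6.80 over all lines.

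**Figure D2:**
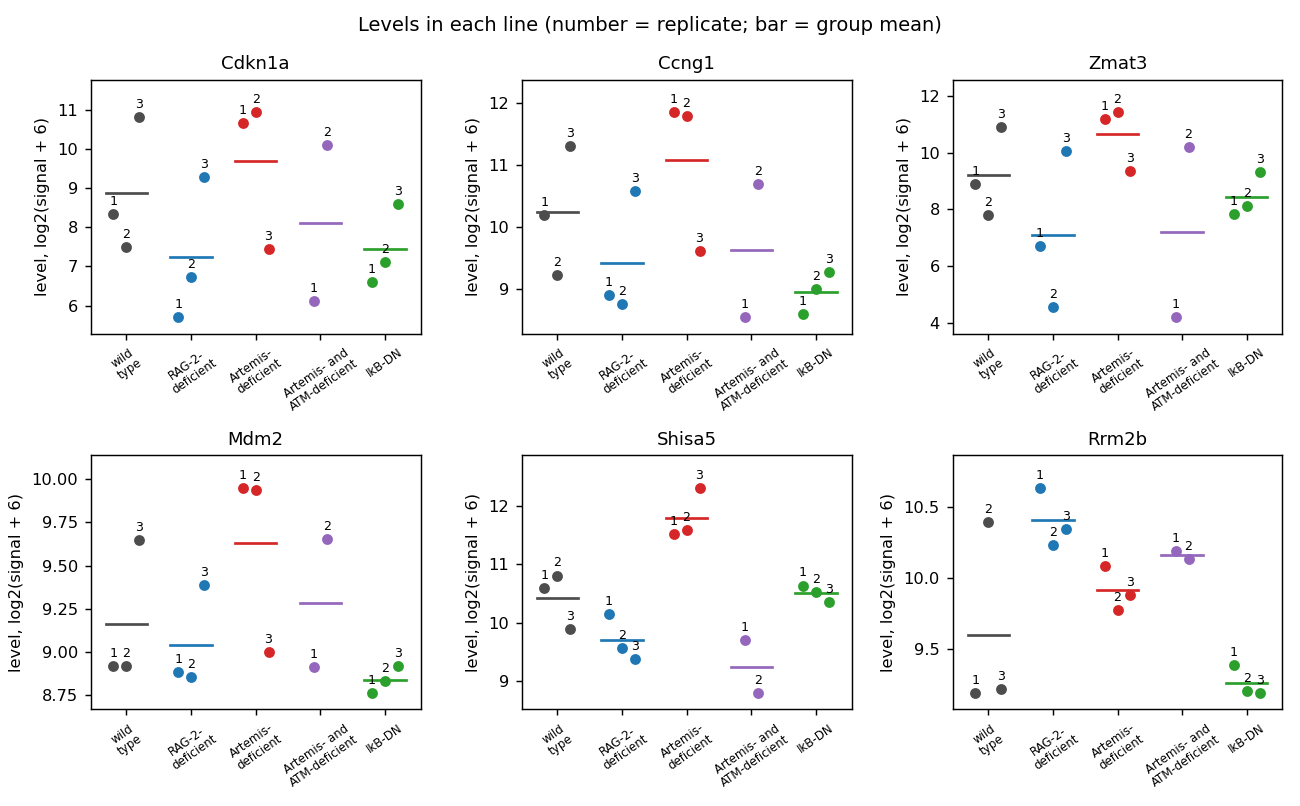
Levels, log2(signal + 6), of 6 p53 target genes in each of the 14 lines; points are lines with their replicate number, bars are group means, and the axes do not start at 0. Cdkn1a, Ccng1, Zmat3 and Mdm2 split the groups into high and low lines, whereas the 3 Artemis-deficient lines lie above all others for Shisa5 and the 3 IkB-DN lines lie close together for Rrm2b.

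Among the repair genes, Ddb2, which recognises ultraviolet damage, was measured at 6.08, 6.41 and 6.42 in wild type, 6.83, 5.94 and 6.49 in RAG-2-deficient, 6.13, 6.93 and 6.44 in Artemis-deficient, 6.06 and 6.70 in Artemis- and ATM-deficient and 7.53, 7.71 and 7.62 in IkB-DN lines. All IkB-DN lines lay above all other lines. Ercc5 encodes the endonuclease XPG of nucleotide excision repair. Its levels were 7.13, 6.68 and 8.15 in wild type, 7.64, 6.77 and 7.54 in RAG-2-deficient, 7.75, 7.55 and 6.18 in Artemis-deficient, 6.67 and 6.96 in Artemis- and ATM-deficient and 5.58, 5.47 and 5.70 in IkB-DN lines. Here the IkB-DN lines were the lowest. Rrm2b encodes the p53-inducible subunit of ribonucleotide reductase, which supplies nucleotides for repair, and stood at 9.19, 10.39 and 9.22 in wild type, 10.63, 10.23 and 10.35 in RAG-2-deficient, 10.09, 9.77 and 9.88 in Artemis-deficient, 10.19 and 10.13 in Artemis- and ATM-deficient and 9.38, 9.20 and 9.19 in IkB-DN lines. Its IkB-DN lines overlapped wild type lines 1 and 3. Polk, a DNA polymerase that copies past lesions, ranged from 6.48 to 8.70 and was highest in Artemis-deficient lines 1 and 2 (8.70, 8.61 and 6.67 in the group). Xpc, which recognises damage in nucleotide excision repair, ranged from 7.18 to 8.72, with RAG-2-deficient line 3 the highest.

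Of the cell death genes, Shisa5, which encodes the endoplasmic reticulum protein Scotin, stood apart from the order of lines above. It was measured at 10.59, 10.81 and 9.90 in wild type, 10.16, 9.57 and 9.38 in RAG-2-deficient, 11.52, 11.58 and 12.30 in Artemis-deficient, 9.70 and 8.80 in Artemis- and ATM-deficient and 10.64, 10.52 and 10.36 in IkB-DN lines. All Artemis-deficient lines were above all other lines, and line 3, low for most members, was the highest. Pidd1 encodes a death domain protein that activates caspase-2, and it was at 5.10 (line 1) and 5.78 (line 3) alone in wild type, no value in RAG-2-deficient, 6.62 (line 1) and 6.61 (line 2) alone in Artemis-deficient, 3.17 and 3.91 in Artemis- and ATM-deficient and 2.80 (line 2) and 3.35 (line 3) alone in IkB-DN lines. The cells left empty include every RAG-2-deficient line, so no change against that group could be computed. The death receptor gene Fas was measured in few lines: no value in wild type, 2.99 (line 3) alone in RAG-2-deficient, 5.41 (line 1) and 5.83 (line 2) alone in Artemis-deficient, 4.33 (line 2) alone in Artemis- and ATM-deficient and no value in IkB-DN lines. Its deposited level was highest in Artemis-deficient line 2. Ei24, an endoplasmic reticulum protein gene of the same list, stood at 8.87, 8.90 and 9.50 in wild type, 8.58, 8.67 and 9.18 in RAG-2-deficient, 10.00, 10.02 and 8.87 in Artemis-deficient, 8.57 and 9.29 in Artemis- and ATM-deficient and 8.76, 8.92 and 8.97 in IkB-DN lines. Trp53inp1, a stress-induced gene of autophagy and cell death, varied little, at 11.71, 11.85 and 11.91 in wild type, 11.99, 11.99 and 12.09 in RAG-2-deficient, 12.26, 12.21 and 11.44 in Artemis-deficient, 12.14 and 12.13 in Artemis- and ATM-deficient and 11.46, 11.52 and 11.43 in IkB-DN lines. Artemis-deficient line 3 sat with the IkB-DN lines, below the other lines, on this probe set. The other tested probe set of Trp53inp1 varied more, over a range of 1.95. On it Artemis-deficient line 3 (8.25) lay above wild type lines 1 (7.93) and 3 (7.59). Phlda3, an inhibitor of Akt signalling, spanned 4.12 to 9.23 and was at 9.12, 9.23 and 4.20 in the Artemis-deficient lines. Aen, an apoptosis-linked exonuclease gene, spanned 5.38 to 8.49, with 8.49, 8.43 and 6.15 in the Artemis-deficient and 6.44 and 7.34 in the Artemis- and ATM-deficient lines. Eda2r, a receptor of the TNF receptor family, was above 5 only in wild type line 3 (6.47) and Artemis-deficient lines 1 (5.28) and 2 (7.15). Apaf1, the core of the apoptosome, stayed between 8.12 and 9.16. Tnfrsf10b and Perp were not tested for low signal, with no value above 4.51 and 3.98.

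Stress and metabolism genes included both kinds of pattern. Dcxr, a carbonyl reductase gene, was measured at 5.87, 5.74 and 6.25 in wild type, 5.16, 5.99 and 6.78 in RAG-2-deficient, 7.84, 8.02 and 5.96 in Artemis-deficient, 5.79 and 6.72 in Artemis- and ATM-deficient and 5.65, 5.29 and 5.77 in IkB-DN lines. Sesn2, one of the sestrins that restrain growth signalling under stress, stood at 6.34, 6.81 and 6.66 in wild type, 6.38, 6.56 and 7.13 in RAG-2-deficient, 7.72, 8.03 and 6.15 in Artemis-deficient, 5.80 and 5.19 in Artemis- and ATM-deficient and 6.15, 6.16 and 6.07 in IkB-DN lines. Both Artemis- and ATM-deficient lines lay below every other line on this probe set. On the other tested probe set of Sesn2 they stood at 5.41 and 5.02. There wild type lines 1 and 2 (4.61 and 4.76), Artemis-deficient line 3 (4.95) and IkB-DN line 2 (3.18) were lower. Sesn1, its relative, ranged from 8.54 to 10.23 and peaked in Artemis- and ATM-deficient line 2. The epoxide hydrolase gene Ephx1 spanned 3.77 to 10.01, with 9.87, 10.01 and 3.77 in the Artemis-deficient lines, so that the lowest and the highest level of all lines fell in that genotype. Ak1, an adenylate kinase gene, was not tested for low signal and did not exceed 5.08.

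The order of the lines was then counted gene by gene, a description chosen after the values had been seen. Wild type line 3 was the highest of its group for 16 of 24 members (66.7%), against 36.5% of 9440 genes. RAG-2-deficient line 3 was the highest for 17 (70.8%, against 34.4%), Artemis-deficient line 3 the lowest for 18 (75%, against 38.2%) and Artemis- and ATM-deficient line 2 the higher for 18 (75%, against 48.2%). All of these positions held together for 11 members (45.8%), namely Aen, Ccng1, Cdkn1a, Dcxr, Ei24, Ephx1, Mdm2, Phlda3, Polk, Sesn1 and Zmat3, and for 5.34% of all genes. Sesn1 had them on its main probe set, but on some others wild type line 1 exceeded line 3 (8.99 against 8.91, and 8.65 against 8.54). Of a list of 51 other p53 target genes, 33 had a value in every line and 7 of these (21.2%) had the same order, among them Bbc3, Psrc1, Pvt1 and Rps27l. Of 21 other regulators 2 (9.52%) had it, Kat5 and Mdm4. Of the 11 members, 10 had a promoter window and 7 held a half-site; of the 13 others, 9 had a window and 4 held one. The 2 arrays of 1 line lay closer together than the lines did. The median gap between the arrays was 0.14 for Artemis- and ATM-deficient line 1, over the 24 members with a value on both of its arrays, and 0.10 for line 2, over 27 members. Line 2 exceeded line 1 for 20 of 27 members, and the median of line 2 minus line 1 over the 27 was 0.73. For Zmat3 line 2 was 6.00 higher, with gaps of 0.68 and 0.11 between arrays, and for Cdkn1a 3.98 higher, with gaps of 0.04 and 0.01. In that line 2 the RAG genes were low, Rag1 at 8.996 against 10.82 in line 1 and Rag2 at 5.99 against 7.49, while Artemis-deficient line 3, low for the members, had Rag1 at 11.47 against 11.45 and 10.95. Their part in the order of lines was not tested.

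**Figure D3:**
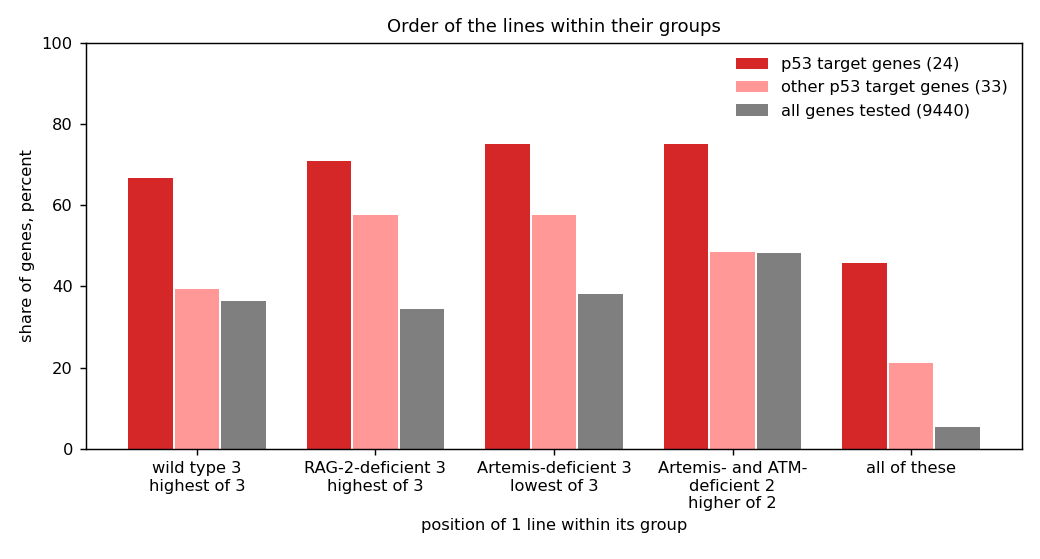
Share of genes, in percent, for which the named line was the highest or lowest of its group, for 24 p53 target genes, 33 other p53 target genes and 9440 genes tested, each without an empty cell. The members exceed all genes at each position, with 45.8% against 5.34% for all positions together; the positions were chosen after the values had been seen.

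Artemis-deficient lines carry unrepaired RAG breaks and RAG-2-deficient lines none, so their difference asks which genes change with such breaks. Of the members 22 of 27 had a positive change, with a median of 0.82, where the median over all 9877 genes was -0.001. Shisa5 was the only member called (adjusted p below 0.05 in limma): it rose by 2.10 ± 0.31, adjusted p = 0.00624 (n = 3 and 3), a ratio of 4.28, and its other probe set rose by 2.57 ± 0.35, adjusted p = 0.00381. Of all genes 1.11% were called, which over 27 genes comes to less than 1. The groups did not overlap for 3 of 24 members, which compares with 18.2% of all genes. Unadjusted p was below 0.05 for 7 of 27 members, beside 14.2% of all genes. Gtse1 was 1.34 ± 0.38, adjusted p = 0.129, with groups that did not overlap. Ei24 gave 0.82 ± 0.31, adjusted p = 0.262, and Dcxr 1.30 ± 0.52, adjusted p = 0.289. Fas, at 2.62 ± 0.51, adjusted p = 0.155, rests on 2 Artemis-deficient lines and 1 RAG-2-deficient line. It passed the filter on low signal only through those 2 lines, where it is high, and is counted among the 22 positive members and the 7 above. Cdkn1a gave 2.44 ± 1.30, adjusted p = 0.445, Mdm2 0.59 ± 0.29, adjusted p = 0.405 and Zmat3 3.55 ± 1.53, adjusted p = 0.331. Each SE comes from the spread pooled over all 14 lines, and the groups overlap for these genes. By role, 4 of 4 regulators, 5 of 6 cell cycle genes, 7 of 8 death genes and 4 of 4 stress genes had a positive change, and 2 of 5 repair genes. The call of Shisa5 held in every alternative run, with adjusted p between 0.00357 and 0.0415. Outside the members, Atr, a kinase gene of the damage response, rose (0.92 ± 0.20, adjusted p = 0.049), 1 of 22 other pathway regulators called, and the receptor gene Notch1 rose (1.30 ± 0.26, adjusted p = 0.0362), 1 of 36 other p53 target genes.

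Wild type lines, whose breaks can be rejoined, were set against the same control. No member of 26 was called in limma, while 0.821% of all genes were. Unadjusted p was below 0.05 for 4 of 26, beside 13.4% of all genes. The median change was 0.14, with 16 of 26 positive. The smallest p-values were those of Rrm2b (-0.80 ± 0.26, adjusted p = 0.202), Pml (-0.64 ± 0.23, adjusted p = 0.252), Gtse1 (0.98 ± 0.38, adjusted p = 0.308), Shisa5 (0.73 ± 0.31, adjusted p = 0.347) and Btg2 (-0.87 ± 0.41, adjusted p = 0.412). Groups overlapped for each of these. Cdkn1a gave 1.64 ± 1.30, adjusted p = 0.673 and Mdm2 0.12 ± 0.29, adjusted p = 0.919. Without wild type line 2, 1 member was called, Rrm2b, beside 1.54% of all genes. Notch1, called above too, rose by 1.38 ± 0.26, adjusted p = 0.0345, the only one of 36 other p53 target genes; of 22 other regulators none was called, and Chek1 (1.71 ± 0.50, adjusted p = 0.173) and Ppp1r13b (-0.62 ± 0.32, adjusted p = 0.471) had the smallest p. The comparisons with the control share the RAG-2-deficient lines, as those below share the Artemis-deficient, the Artemis- and ATM-deficient or the IkB-DN lines, so their values are not independent.

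Set against wild type directly, the Artemis-deficient lines were higher for 24 of 27 members, with a median of 0.63 where all genes had -0.02. None was called in limma, while 0.577% of all genes were, and 5 of 27 had an unadjusted p below 0.05, beside 12.6% of all genes. Pml came closest at 1.10 ± 0.23, adjusted p = 0.061, followed by Shisa5 at 1.37 ± 0.31, adjusted p = 0.0755 and Btg2 at 1.22 ± 0.41, adjusted p = 0.23. For these the groups did not overlap. Dcxr gave 1.32 ± 0.52, adjusted p = 0.314, with overlap, and Pidd1 1.18 ± 0.42, adjusted p = 0.317 over 2 lines a group. Cdkn1a differed by 0.80 ± 1.30, adjusted p = 0.852 and Mdm2 by 0.47 ± 0.29, adjusted p = 0.557. The count was 1 without wild type line 1 (Pml), wild type line 2 (Rrm2b), RAG-2-deficient line 3 (Pml) or Artemis-deficient line 3 (Trp53inp1). In that order 0.418%, 0.764%, 0.58% and 0.367% of all genes were called. No gene of the other lists was called: Abhd4 (1.45 ± 0.29, adjusted p = 0.0569) and Dgka (0.73 ± 0.27, adjusted p = 0.281) had the smallest p of the other targets, and Ppp1r13b (1.40 ± 0.32, adjusted p = 0.084) and Atr (0.62 ± 0.20, adjusted p = 0.21) of the regulators.

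ATM is the kinase that signals breaks to p53, and the lines lacking both Artemis and ATM ask what remains without it. Against the RAG-2-deficient lines 0 of 27 members were called in limma, while 0.679% of all genes were, and 2 of 27 had an unadjusted p below 0.05, beside 12.2% of all genes. The median change was 0.11 and 15 of 27 were positive. Sesn2 was -1.20 ± 0.44, adjusted p = 0.293, without overlap, Gtse1 0.93 ± 0.42, adjusted p = 0.426, Btg2 -0.87 ± 0.45, adjusted p = 0.497 and Shisa5 -0.45 ± 0.34, adjusted p = 0.674. Fas gave 1.34 ± 0.59, adjusted p = 0.501 from 1 line in either group. Cdkn1a, 0.87 ± 1.45, adjusted p = 0.875, and Mdm2, 0.24 ± 0.32, adjusted p = 0.842, averaged a low line 1 and a high line 2. Kitl, the gene of stem cell factor, rose by 3.05 ± 0.46, adjusted p = 0.0132, 1 of 35 other p53 target genes called. No other regulator of 22 was called; Atm itself was -0.70 ± 0.17, adjusted p = 0.093 and Hipk2 -0.65 ± 0.32, adjusted p = 0.451. 

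Artemis-deficient lines with ATM were higher than those without it for 23 of 28 members, by a median of 0.75 where all genes had 0.02. Fas, at 5.41 and 5.83 in 2 lines with ATM and 4.33 in 1 without, is counted among the 23. It passed the filter on low signal only through those 2 Artemis-deficient lines, where it is high. Shisa5 was the member called: it was higher with ATM by 2.55 ± 0.34, adjusted p = 0.00763 (n = 3 and 2), a ratio of 5.85, and by 3.07 ± 0.39, adjusted p = 0.00478 on its other probe set. Of all genes 0.334% were called. Pidd1 just missed the threshold at 3.08 ± 0.42, adjusted p = 0.0507 over 2 lines a group, and Sesn2 gave 1.81 ± 0.44, adjusted p = 0.147, both without overlap. On the other tested Sesn2 probe set the groups overlapped, with Artemis-deficient line 3 (4.95) below both Artemis- and ATM-deficient lines. Plk2, 3.98 ± 1.37, adjusted p = 0.384, and Btg2, 1.21 ± 0.45, adjusted p = 0.389, completed the 5 smallest p-values, and 6 of 28 members had an unadjusted p below 0.05, beside 10.3% of all genes. Cdkn1a differed by 1.57 ± 1.45, adjusted p = 0.803 and Mdm2 by 0.35 ± 0.32, adjusted p = 0.806, with overlapping lines. The count of called members was 0 without Artemis- and ATM-deficient line 2, where Shisa5 had an adjusted p of 0.0852 (range over its alternatives 0.00485 to 0.174), and 2 without wild type line 2 or RAG-2-deficient line 1 (with Pidd1) or Artemis-deficient line 3 (with Sesn2). It was 0 in a fit of these 2 groups alone. Without wild type line 2, RAG-2-deficient line 1 and Artemis-deficient line 3, the shares of all genes called were 0.428%, 0.397% and 0.204%. Kitl was lower with ATM (-2.93 ± 0.46, adjusted p = 0.0269), 1 of 35 other targets; no other regulator was called, Atr (0.74 ± 0.22, adjusted p = 0.254) and Ppp1r13l (0.72 ± 0.22, adjusted p = 0.266) having the smallest p.

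The IkB-DN lines ask what changes when NF-kB is blocked in cells with unrepaired breaks. Compared with Artemis-deficient lines, they were lower for 20 of 27 members, so that Artemis-deficient minus IkB-DN had a median of 0.85 where all genes had -0.005. Artemis-deficient line 3, which has no block, had a member median of -0.26, beside -0.41, -0.35 and -0.19 in the IkB-DN lines. The labels do not give the parent line of the IkB-DN samples, so block and line of origin cannot be told apart here. Pidd1 had a higher level without the block, by 3.54 ± 0.42, adjusted p = 0.0123 (2 lines a group). Its IkB-DN values lie near background, Artemis-deficient line 3 and IkB-DN line 1 are empty, and the change was 4.86 with a constant of 1 and 2.13 with a constant 4 times as large. Ddb2 was lower in the Artemis-deficient than in the IkB-DN lines, with a difference of -1.12 ± 0.26, adjusted p = 0.047. These were the 2 members called, beside 2.4% of all genes, while 16 of 27 had an unadjusted p below 0.05, beside 20.1% of all genes. Shisa5 was 1.30 ± 0.31, adjusted p = 0.0522 and called on its other probe set (1.70 ± 0.35, adjusted p = 0.0298), as was 1 probe set of Aen (2.08 ± 0.48, adjusted p = 0.0487). Ppm1d gave 0.85 ± 0.21, adjusted p = 0.0584, Ercc5 1.58 ± 0.43, adjusted p = 0.0789, Mdm2 0.79 ± 0.29, adjusted p = 0.17 and Cdkn1a 2.24 ± 1.30, adjusted p = 0.381. Without Artemis-deficient line 3, 12 of 27 members were called, beside 5.63% of all genes, all of them higher in the Artemis-deficient lines: Ei24, Trp53inp1, Dcxr, Ccng1, Pidd1, Ephx1, Mdm2, Aen, Sesn2, Ppm1d, Phlda3 and Ercc5. Without Artemis-deficient line 1 or IkB-DN line 2 none was, beside 0.622% and 0.346% of all genes. Ddb2 had an adjusted p of 0.0335 to 0.0614 over the settings that kept all lines, and kept its call in 4 of these 8. It lost the call in 8 of the 14 runs that left out 1 line, with changes between -1.33 and -0.93. The other tested probe set of Ddb2 was not called. The count was 4 without wild type line 3, beside 3.16% of all genes. It was 1 without wild type line 1, RAG-2-deficient line 3, Artemis-deficient line 2 or IkB-DN line 1 or 3. In that order 2.59%, 2.29%, 1.42%, 0.612% and 0.765% of all genes were called. If the IkB-DN samples are cultures of 1 line, p-values against them are too small. The summed signal of 9 myeloid markers was 665 to 789 in the IkB-DN lines, 142 to 439 in the Artemis-deficient lines and 146 to 785 in the RAG-2-deficient lines; its part in these differences was not tested. Mdm4, the partner of Mdm2 in restraining p53, was higher in the Artemis-deficient lines (1.44 ± 0.30, adjusted p = 0.0328), 1 of 22 other regulators; no other target of 35 was called, with Rap2b (1.46 ± 0.35, adjusted p = 0.0544) and Notch1 (0.93 ± 0.26, adjusted p = 0.0872) nearest.

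Against the RAG-2-deficient control the IkB-DN lines gave 4 called members of 26, beside 10.6% of all genes. Gtse1 rose by 2.12 ± 0.38, adjusted p = 0.00623 (n = 3 and 3) and Ddb2 by 1.20 ± 0.26, adjusted p = 0.013. Rrm2b, on all 4 of its probe sets, and Ercc5 went the other way. Rrm2b changed by -1.15 ± 0.26, adjusted p = 0.0167 on its main probe set and by -2.31 ± 0.47, adjusted p = 0.0107 on the one with the largest change, and Ercc5 by -1.73 ± 0.43, adjusted p = 0.0249. Trp53inp1 was -0.55 ± 0.17, adjusted p = 0.0559, without overlap. Positive changes numbered 13 of 26 and the median was -0.01. Cdkn1a, 0.20 ± 1.30, adjusted p = 0.94, and Mdm2, -0.20 ± 0.29, adjusted p = 0.702, showed no detectable difference at this spread. The count was 2 without RAG-2-deficient line 1, 1 without IkB-DN line 2 and 2 without IkB-DN line 3. Of all genes 6.36%, 4.19% and 5.54% were called in these runs. Gtse1 was called in each, as it was without any other line. Among other regulators Bcl6, a repressor that acts on p53's gene in B cells (1.33 ± 0.24, adjusted p = 0.00672) and Atr (0.68 ± 0.20, adjusted p = 0.0484) rose, 2 of 22. Of 35 other targets Sco2, needed for cytochrome oxidase (0.93 ± 0.24, adjusted p = 0.0313) and Abhd4 (1.01 ± 0.29, adjusted p = 0.048) rose and Gadd45a, a growth arrest gene, fell (-2.09 ± 0.44, adjusted p = 0.013).

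**Figure D4:**
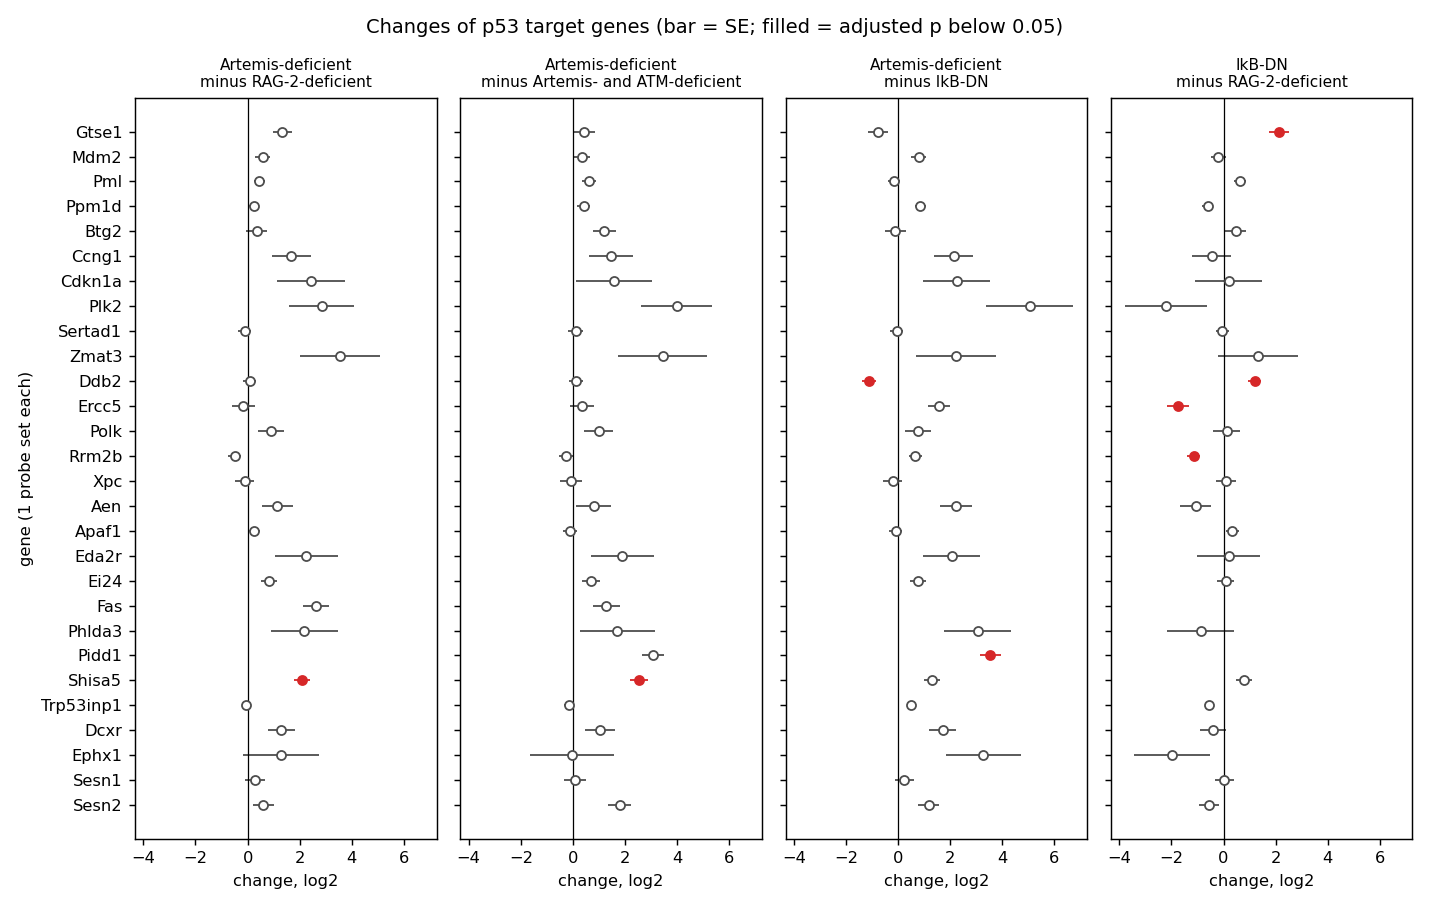
Changes, log2, of the tested p53 target genes in 4 comparisons of lines, with SE bars; filled red points have an adjusted p below 0.05. Most points of the first 3 panels lie right of 0 with wide bars, and the filled points are Shisa5 in the first 2 panels, Pidd1 and Ddb2 in the third and Gtse1, Ddb2, Ercc5 and Rrm2b in the fourth.

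Loss of ATM and block of NF-kB in Artemis-deficient cells differed for 2 of 27 members, both lower in the Artemis- and ATM-deficient lines: Ddb2 (-1.24 ± 0.29, adjusted p = 0.0264) and Shisa5 (-1.25 ± 0.34, adjusted p = 0.0487, n = 2 and 3). Of all genes 7.13% were called. Trp53inp1 was 0.67 ± 0.19, adjusted p = 0.0531, Rrm2b 0.90 ± 0.29, adjusted p = 0.0807 with 1 other probe set called (1.02 ± 0.26, adjusted p = 0.0408), and Pml -0.79 ± 0.25, adjusted p = 0.0819. Cdkn1a gave 0.67 ± 1.45, adjusted p = 0.835 and Mdm2 0.44 ± 0.32, adjusted p = 0.45. The count was 0 without IkB-DN line 1, 2 or 3, beside 2.24%, 1.8% and 3.37% of all genes. It was 1, Ddb2, without wild type line 1 or RAG-2-deficient line 3, beside 7.62% and 6.45% of all genes. Without wild type line 2 it was 4, beside 7.7%. Leaving out an Artemis- and ATM-deficient line leaves 1 in that group. Ddb2 was then -0.92 without line 1 and -1.56 without line 2, and Shisa5 -1.70 and -0.80. Of 35 other targets 3 were called. In the Artemis- and ATM-deficient lines Kitl (3.39 ± 0.50, adjusted p = 0.0054) and Gadd45a (2.00 ± 0.50, adjusted p = 0.0348) were higher than in the IkB-DN lines. Abhd4 (-1.71 ± 0.32, adjusted p = 0.0125) was lower there, as was Bcl6 (-1.01 ± 0.27, adjusted p = 0.0469), 1 of 22 regulators. Which of these 2 groups had moved cannot be read from their difference alone.

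In the bone marrow the question was the same as in the lines, unrepaired breaks against none, in cells taken from the animal. Before the members, the samples' make-up: 8 of 9 myeloid markers, 4 of 4 dendritic cell markers and 3 of 5 T and NK cell markers were higher in both Artemis-deficient samples than in both controls, and 10 of 11 pre-B cell and 4 of 5 plasma cell markers were lower. Of 4 erythroid markers 1 was higher and 2 were lower, and the T cell marker Cd4 had values in the Artemis-deficient samples alone, 8.66 and 10.13. By the same rule 2522 of 9917 genes were higher and 2498 lower, so the small T and NK cell and erythroid counts say little. The summed myeloid signal was 46189 to 52574 against 27778 to 39892, the dendritic one 6044 to 8283 against 1133 to 2148, the T and NK one 3801 to 3864 against 1530 to 1929, and the pre-B one 23932 to 33767 against 43705 to 49124. Their part in the results below was not tested, and in such bulk samples fewer cells of a type and less RNA per cell cannot be told apart. Positive and negative changes were nearly even, 12 and 14 of 26 members, with a median of -0.03. Zmat3 was the only member called, beside 2.65% of all genes: it was at 7.95 and 7.52 in the Artemis-deficient samples and 5.53 and 4.73 in the RAG-1-deficient samples, a change of 2.61 ± 0.34, adjusted p = 0.0258. It passed the filter on low signal only through the 2 Artemis-deficient samples, where it is high, so that a difference was needed for it to be tested. Groups did not overlap for 17 of 26 members, against 50.6% of all genes. Ccng1 was at 10.88 and 10.20 in the Artemis-deficient samples and 9.42 and 9.51 in the RAG-1-deficient samples, a change of 1.07 ± 0.23, adjusted p = 0.0614, and was called on 1 other probe set (1.48 ± 0.26, adjusted p = 0.038). Shisa5 was at 12.52 and 12.63 in the Artemis-deficient samples and 11.56 and 11.97 in the RAG-1-deficient samples, a change of 0.81 ± 0.18, adjusted p = 0.0677, and was called on its other probe set (1.18 ± 0.23, adjusted p = 0.0444). For these the Artemis-deficient samples were the higher pair.

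Other members were lower in the Artemis-deficient marrow. Rrm2b was at 9.36 and 8.95 in the Artemis-deficient samples and 9.97 and 10.23 in the RAG-1-deficient samples, a change of -0.94 ± 0.20, adjusted p = 0.0589. On another probe set it stood at 4.97 and 5.71 in the Artemis-deficient samples and 7.56 and 8.72 in the RAG-1-deficient samples and fell by more (-2.80 ± 0.43, adjusted p = 0.0283), as it did on a further one (-2.94 ± 0.53, adjusted p = 0.0385). Trp53inp1 was at 11.75 and 11.55 in the Artemis-deficient samples and 11.97 and 12.15 in the RAG-1-deficient samples (-0.41 ± 0.16, adjusted p = 0.266) and fell on its second probe set (-1.32 ± 0.23, adjusted p = 0.0352). Plk2 was at 6.56 and 6.39 in the Artemis-deficient samples and 7.35 and 7.22 in the RAG-1-deficient samples, a change of -0.81 ± 0.23, adjusted p = 0.131. Cdkn1a stood at 7.58 and 7.03 in the Artemis-deficient samples and 7.94 and 7.65 in the RAG-1-deficient samples and did not pass the test (-0.49 ± 0.26, adjusted p = 0.394). Mdm2 was at 9.81 and 9.47 in the Artemis-deficient samples and 9.68 and 9.64 in the RAG-1-deficient samples, where the control pair lay within the range of the other (-0.02 ± 0.18, adjusted p = 0.97). Smaller positive changes with no overlap were measured for Ei24 (0.54 ± 0.17, adjusted p = 0.16), Aen (0.58 ± 0.21, adjusted p = 0.215) and Phlda3 (0.56 ± 0.22, adjusted p = 0.264). Fas, Tnfrsf10b, Eda2r, Perp and Ak1 were not tested for low signal. Leaving out 1 marrow sample leaves 1 sample in its group, so calls in such runs are not read as results about single genes. Zmat3 had a change of 3.01 or 2.21 without RAG-1-deficient sample 1 or 2 and lost its call in either case. Without Artemis-deficient sample 1 or 2 it no longer passed the filter on low signal. Over these 4 runs the change of Ccng1 lay between 0.74 and 1.41 and that of Rrm2b between -1.15 and -0.74. Of 37 other p53 target genes Pmaip1, which encodes the death protein Noxa, rose (1.51 ± 0.27, adjusted p = 0.0385); of 21 other regulators none was called, and Trim24 (0.77 ± 0.19, adjusted p = 0.0915) and Chek1 (-0.66 ± 0.21, adjusted p = 0.177) had the smallest p.

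**Figure D5:**
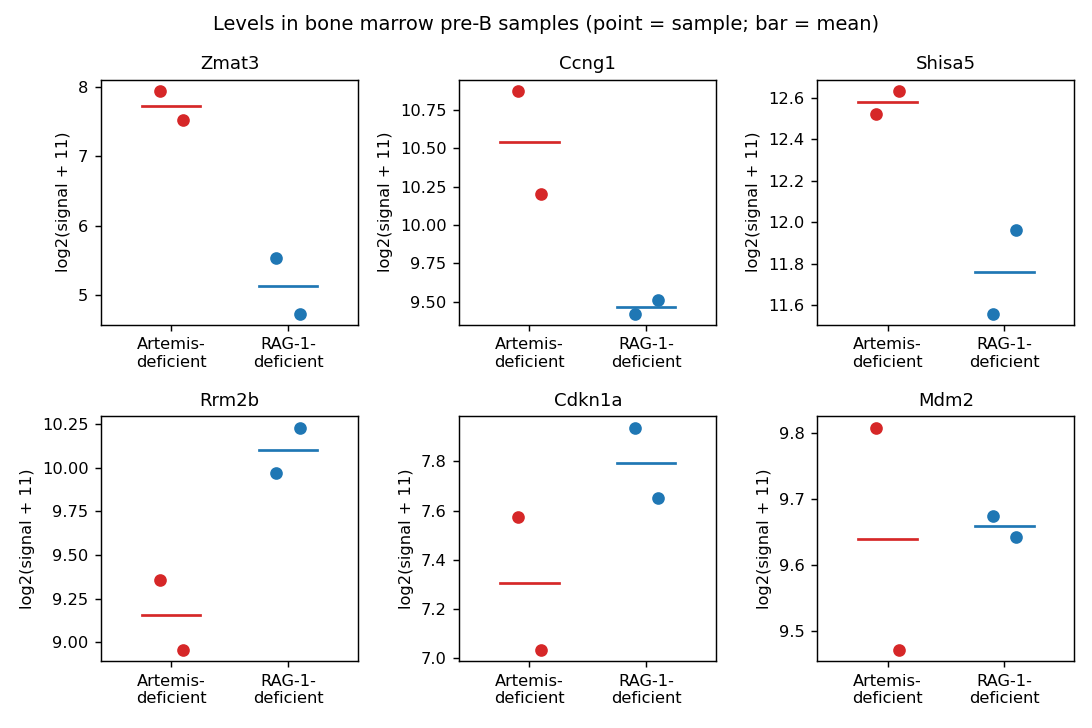
Levels, log2(signal + 11), of 6 p53 target genes in the 4 bone marrow samples; points are samples, bars are means of 2, and the axes do not start at 0. Zmat3, Ccng1 and Shisa5 are higher and Rrm2b and Cdkn1a lower in both Artemis-deficient samples, and the groups overlap for Mdm2.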

How the data were processed

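RNA hybridised to Affymetrix mouse genome-wide arrays was measured; the arrays were read with GeneChip Operating Software 1.2.0.037, per the labels. The authors deposited 1 table of log10 signals for 44200 probe sets and 20 arrays, with no detection calls; the log base is inferred from the values, further scaling is not stated, and 14.8% of the cells of the lines and 14.4% of those of the marrow are empty and stayed so. Signals were restored as powers of 10, and log2(signal + 6) or, in the marrow, log2(signal + 11) was used, the constants being the 25th percentiles of the 2 sets. The technical pairs of arrays were averaged. A probe set was tested where at least 2 samples reached their array's median signal, 21936 in the lines and 19520 in the marrow.

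Groups were compared with limma 3.58.1 in R 4.3.3 (group means, intensity trend, two-sided, Benjamini-Hochberg adjustment over all probe sets tested, called below 0.05), with 1 fit over all 14 lines and 1 over the 4 marrow samples. Probe sets of several genes (916) or none (8990) were left out of gene counts. A change against a group whose cells are all empty could not be computed. The fit was tested on simulated data. The number of samples limits the precision.

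Values were given per sample for Cdkn1a, Mdm2, each called member and the 5 members with the smallest p in each comparison; Zmat3, Ccng1, Phlda3, Ephx1, Aen and Polk in the lines were added after their values were seen. The members and all gene lists were chosen with earlier results of these data known. Control probe sets for RNA quality were not used here. Alternatives were other constants, filters, scalings, fits and probe sets, and leaving out each sample. Plots used Python 3.11.15 with matplotlib 3.10.9.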

Additional observations from a re-analysis of the deposited data

How the results depend on the processing

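The number of p53 target genes called depended on the settings in most comparisons. The main counts were 1 for Artemis-deficient and 4 for IkB-DN lines against RAG-2-deficient lines, 1, 2 and 2 for Artemis-deficient against Artemis- and ATM-deficient, Artemis-deficient against IkB-DN and Artemis- and ATM-deficient against IkB-DN lines, 1 in the marrow, and 0 elsewhere. With a constant of 1, Artemis-deficient against IkB-DN gave 1 and Artemis- and ATM-deficient against IkB-DN gave 1, and with a constant 4 times as large Artemis-deficient against Artemis- and ATM-deficient gave 2. With no filter on low signals the last gave 2, both comparisons with IkB-DN gave 1 and the marrow 3. With quantile normalization Artemis-deficient against Artemis- and ATM-deficient gave 2 and the marrow 2. In fits of only the compared groups IkB-DN against RAG-2-deficient gave 8, Artemis-deficient against Artemis- and ATM-deficient 0, against IkB-DN 5, and Artemis- and ATM-deficient against IkB-DN 10. Without the intensity trend Artemis-deficient against Artemis- and ATM-deficient gave 2, both against IkB-DN 1 and the marrow 0. With the probe set of largest spread Artemis- and ATM-deficient against IkB-DN gave 1 and the marrow 5. With only the first array of each Artemis- and ATM-deficient line, Artemis-deficient against IkB-DN gave 1. Counted over all probe sets the calls were 2 and 8 against RAG-2-deficient for Artemis-deficient and IkB-DN, 2, 4 and 4 in the comparisons among lines that all lack Artemis, and 6 in the marrow. The share of all genes called under these settings is not given here, so the counts do not set members apart from other genes. The cause of these moves was not tested.

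Leaving out 1 sample at a time, the counts ranged from 1 to 1 for Artemis-deficient, 0 to 1 for wild type, 0 to 0 for Artemis- and ATM-deficient and 1 to 6 for IkB-DN lines against RAG-2-deficient lines. They ranged from 0 to 2 for Artemis-deficient against Artemis- and ATM-deficient, 0 to 12 against IkB-DN, 0 to 1 against wild type, 0 to 4 for Artemis- and ATM-deficient against IkB-DN, and 0 to 1 in the marrow. A group left with 1 sample was taken to vary like the others. The share of all genes called moved too. For Artemis-deficient against IkB-DN lines it was 5.63% without Artemis-deficient line 3 and 0.346% without IkB-DN line 2. In the same runs it was 12.2% and 4.19% for IkB-DN against RAG-2-deficient lines. Among values of single genes under an alternative, 830 kept direction and side of the threshold, 46 lost the call, 37 gained it and 1 reversed: Shisa5 in Artemis- and ATM-deficient against RAG-2-deficient lines, -0.45, ranged from -0.90 without Artemis- and ATM-deficient line 1 to 0.00115 without line 2. No paired analysis was possible because the labels give no replicate numbers that groups share. Probe sets near background, such as those of Fas, Plk2 and Pidd1, rest on the few lines with a value.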
